A study of Mus musculus with 2 samples.

Results

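Epidermal keratinocytes were a small part of the tdT+ cells that were sequenced here. They numbered 251 of 22086 kept cells, 98 in one library and 153 in the other. A cell was kept with at least 1000 UMIs (unique molecular identifiers, each standing for 1 captured transcript) and at most 10% of its UMIs from mitochondrial genes. Kept cells were then chosen by their own counts: at least 10 UMIs of the basal keratins Krt5, Krt14 and Krt15 together, and at least 2 UMIs of Epcam, Trp63 and Perp together. The levels of these 6 genes therefore describe the choice and are not findings.

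The study followed the descendants of cells that had expressed Myf5, a myogenic transcription factor, in embryos with or without the splicing factor SRSF2. E14 mouse trunks with limbs were dissociated, cells carrying the tdT reporter were sorted, and 1 library per genotype was made with 10x Genomics 3′ chemistry. All embryos carried a Cre recombinase driven by the Myf5 promoter and a tdTomato reporter that Cre switches on. The mutant was SRSF2f/f/Myf5-Cre/tdT, with both Srsf2 copies floxed, and the control was SRSF2f/w/Myf5-Cre/tdT, which also has 1 floxed copy. The number of embryos behind each library is not given in the sources used here. The genotype of each library is in conflict. Summaries by the authors name one library WT and the other KO, and the study's supplement sets these under the control and the mutant, whereas the titles of the deposited samples give the opposite genotype. The libraries are therefore called the library labelled WT and the library labelled KO, and no direction below is tied to a genotype. Over all kept cells, Srsf2 was at 219 UMIs per 1000000 in the library labelled WT and 153 in the library labelled KO. With 1 library each, no test between them was possible. All intervals are 95% intervals that cover counting error only, and not the spread between embryos. They are exact, except those of the ratio of keratinocyte shares and of differences between shares, which are approximate.

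Epidermis is a stratified epithelium that grows from a basal layer. Basal keratinocytes express Krt5 and Krt14, hold on to the basement membrane through hemidesmosomes and to each other through desmosomes, and keep dividing. Cells that leave this layer switch to Krt1 and Krt10, strengthen their desmosomes and later form the cornified envelope and lipids of the skin barrier. In mouse embryos this program runs in the days around and after the stage studied here, beneath a transient outer layer called the periderm.

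The members held 1745449 UMIs in the library labelled WT and 4166192 in the library labelled KO. A member had a median of 14332 UMIs (5209 to 53446) and 3602 genes in the former, and of 23184 UMIs (3895 to 82419) and 4357 genes in the latter. Cells of the KO library were thus the deeper ones. Shares of cells given at 5000 UMIs per cell come from cells thinned to that depth. Other shares of cells with a UMI of a gene are not thinned, and depth can add to their differences between the libraries. Mitochondrial genes took a median of 4.75% and 3.62% of a member's UMIs. Of the barcodes, 74 occurred in both libraries, and 2 of them belonged to a keratinocyte, in no case to 2 keratinocytes.

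The label was checked with genes that the rule did not use. Sfn, which encodes the epithelial adaptor protein stratifin, had a UMI in 99.0% of the members of the WT library and 100% of those of the KO library. Endothelial cells of the same libraries (Pecam1, Kdr and Cdh5 together at 10 UMIs or more, median depths of 16703 and 19895) had it in 2.78% and 7.995%. The desmosomal plaque protein Dsp was found in 93.9% and 94.8% of the members, against 1.74% and 2.95% of endothelial cells. Cdh1, the epithelial cadherin, was found in 75.5% and 90.9%, against 0.694% and 2.34%. These genes go with the label.

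Near the thresholds the rule separated like cells. Of the members, 9 had a keratin sum of 10 to 14, with Cdh1 in 5 and Dsp in 7 of them. Just outside, 11 kept cells had a keratin sum of 5 to 9 with an epithelial sum of at least 2, and Cdh1 was found in 8 and Dsp in 9 of these. Only 1 member had an epithelial sum of 2 or 3, and 2 cells with enough keratin were left out for an epithelial sum under 2. A further 7 barcodes of the KO library met the keratin rule but failed a quality limit.

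Keratinocytes made up 0.807% of the kept cells in the library labelled WT (0.656% to 0.983%) and 1.54% in the library labelled KO (1.31% to 1.801%). The log2 ratio of the shares, KO over WT, was 0.93 (0.57 to 1.30), a 1.91-fold difference. A share inside the tdT gate also moves with the other cells in it. Skeletal muscle cells (Pax7, Myod1 and Myog together at 10 UMIs or more) took 9.11% of the kept cells of the WT library and 0.634% of those of the KO library.

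Srsf2 itself was read first among the genes. It had 379 UMIs in the members of the library labelled WT, a level of 217 CPM (counts scaled to 1000000 UMIs of the same cells, not divided by gene length, 196 to 240). In the library labelled KO it had 779 UMIs, or 187 CPM (174 to 201), which gives a log2 ratio of -0.22 (-0.39 to -0.03). In the other kept cells the levels were 219 and 151 CPM, with a ratio of -0.53. The ratio was below 0 in both sets of cells, but with at most 5% mitochondrial UMIs the interval in keratinocytes was -0.41 to 0.01 and included 0. Whether a given cell had lost the floxed part was not analysed here. Mettl23, which overlaps Srsf2 on the other strand, had a ratio of -0.51 (-1.04 to 0.05). Myf5 had 2 UMIs, in 2 cells, in the members of the WT library and 0 UMIs in those of the KO library. The interval of this count of 0 reached up to 0.885 CPM. Among the SR family of splicing factors, 9 genes had 200 UMIs or more in the members and 0 of them were past 1.5-fold, with a median ratio of -0.08. Beside this stands the background of the same comparison: of 3606 genes with at least 200 UMIs, 320 (8.87%) were past 1.5-fold, 217 (6.02%) higher in the KO library and 103 (2.86%) lower, with a median ratio of -0.00. This balance depends on the UMI limit, since 640 genes were higher and 689 lower with at least 50 UMIs per gene.

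Against all other kept cells, the keratinocytes were compared by lists of adhesion genes and epithelial transcription factors. This contrast shares its cells with the rule and is given as a description. Of 12613 genes with at least 200 UMIs over the kept cells of each library, 150 (1.19%) were more than 4-fold higher in the keratinocytes of both libraries. Among the list genes that passed this limit, some of them, such as Cdh1 and Ovol1 in the WT library, only with the counts of the keratinocytes themselves, the counts were 7 of 9 epithelial transcription factors, 4 of 4 desmosome genes, 7 of 9 genes of adherens and tight junctions, 7 of 12 genes of hemidesmosome and basement membrane, and 5 of 5 genes of the periderm list.

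The 25 genes with the highest ratio were taken from those with at least 200 UMIs in the members, a different limit, which some pass only because keratinocytes express them. Of these, Ovol1 and Grhl3 are transcription factors, as is Trp63 of the rule. Ovol1, a zinc finger repressor of the epidermis, stood at 139 CPM in the WT library and 160 in the KO library, and at 0.419 and 0.842 CPM in the other kept cells. Grhl3, a factor for barrier formation, stood at 42.4 and 53.1 CPM. The epithelial splicing regulators are of interest in a study of a splicing factor: Esrp1 was at 59.0 and 57.1 CPM in the keratinocytes, a ratio of -0.05 (-0.39 to 0.30), and at 0.246 and 0.834 CPM elsewhere.

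Adhesion genes formed the second block. Col17a1, the transmembrane collagen of hemidesmosomes, was at 95.7 and 115 CPM against 0.918 and 0.809 CPM in other cells, and Lama3, a laminin chain of the epidermal basement membrane, was at 44.1 and 66.7 CPM. Cldn4, a claudin of tight junctions, was at 230 and 235 CPM, with a ratio of 0.03 (-0.14 to 0.20). The polarity protein Crb3 and the surface protein Cdcp1 were in the same group. Between the libraries, of 9 hemidesmosome and basement membrane genes with 200 UMIs or more, 1 was past 1.5-fold, a share near the 8.87% of all genes. It was Lama3 with 0.60 (0.23 to 0.98), and the list's sum was 977 and 978 CPM.

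Il24 and Wnt3, which encode signals, had low levels outside the keratinocytes. Il24, a cytokine made by epidermis, was at 69.9 and 180 CPM in keratinocytes and at 0.186 and 0.561 CPM elsewhere. Wnt3 was at 76.2 and 52.8 CPM against 0.233 and 0.380 CPM. Serpinb2 and Serpinb5, of the serine protease inhibitor family, Spint1, an inhibitor of membrane proteases, and Csta1, of the cystatin family, were also among the 25. Serpinb2 was at 139 CPM in the WT library and 438 in the KO library. Ifi202b, an interferon-inducible gene, was at 191 and 523 CPM. The top 25 also held Krt14, Krt5 and Krt15 of the rule, Krt17, Trim29 and Ankrd22.

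Within the keratinocytes, Krt1 and Krt10 marked a graded step out of the basal program. Krt1 and Krt10 had 0 UMIs in 152 members, and 15 members reached 10 UMIs of both together per 10000, the limit used here for suprabasal cells. It is a point on a range and not a boundary between types, since 16 members lay between 5 and 20 per 10000. Only 1 of the 98 members of the WT library was past the limit, or 1.02% (0.0258% to 5.55%), against 14 of 153 in the KO library, or 9.15% (5.09% to 14.9%). The difference of 8.13 percentage points had an interval of 2.33 to 13.8. With the limit at 20 per 10000 it was 0.94 (-3.78 to 4.68), and with at most 5% mitochondrial UMIs it was 7.01 (-1.62 to 13.2), so that both of these intervals include 0. With a keratin sum of 5 in the choice of members, 3 cells of the WT library (2.91%) and 17 of the KO library (10.7%) were past the limit.

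**Figure D1:**
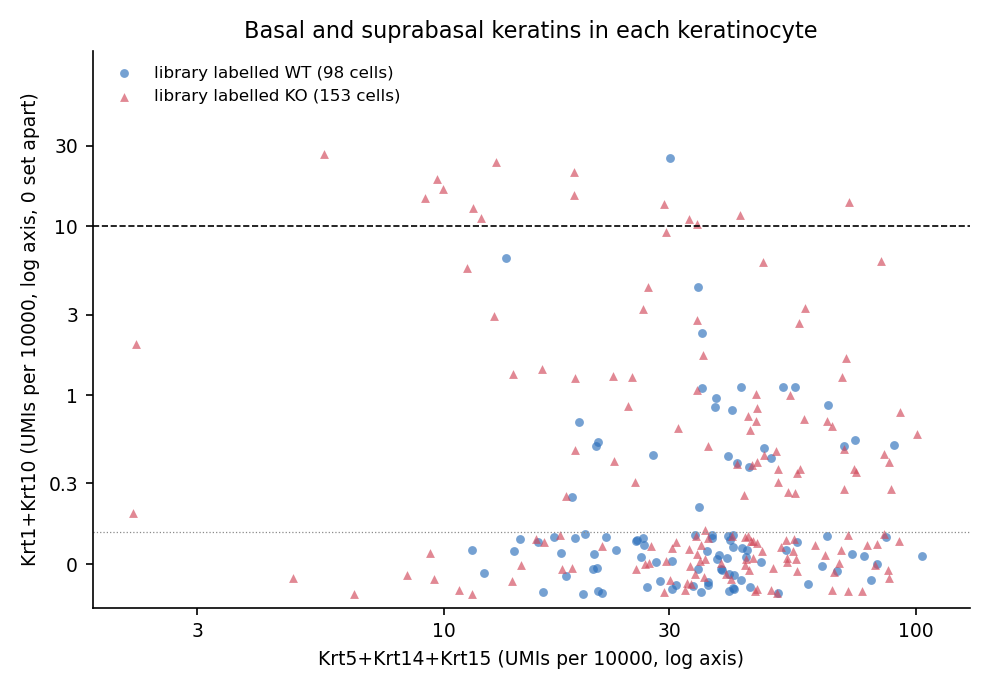
Each point is 1 of the 251 keratinocytes, with the UMIs per 10000 of Krt5, Krt14 and Krt15 together on the horizontal log axis and of Krt1 and Krt10 together on the vertical log axis. Cells with 0 UMIs of Krt1 and Krt10 are spread below the dotted line, and the dashed line marks 10 per 10000, which 1 cell of the library labelled WT and 14 cells of the library labelled KO reached.

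The 15 genes that were highest in suprabasal cells against the other members are given as a description, since Krt1 and Krt10, which are among them, chose these cells. Of 5626 genes with at least 100 UMIs, 169 (3%) were more than 2-fold higher in these cells. This limit counts the suprabasal cells too, and some genes passed it only with them. Ly6d, Elovl4, Krt6a, Lce3d and Fabp7 had 42, 80, 98, 57 and 62 UMIs in the other members. Krtdap, a secreted product of differentiating keratinocytes, was at 3410 CPM in suprabasal cells and 286 CPM in the rest, and had a UMI in all 15 suprabasal cells and 46.2% of the others. Sbsn, or suprabasin, was at 777 and 59.6 CPM. Sprr1b and Sprr1a, precursors of the cornified envelope, were at 1621 against 75.1 CPM and at 3000 against 343 CPM. Asprv1, a skin protease that acts on profilaggrin, was at 1018 and 58.9 CPM. Elovl4, the elongase of very long chain barrier lipids, was at 286 and 14.8 CPM. Ly6d, Calm4, Rab25, Krt6a and Gltp were also in this group. For Lce3d and Fabp7 a single cell held 82.6% and 97.8% of the suprabasal UMIs, so their place rests on that cell.

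Late genes of the program had few UMIs. Flg, the gene of profilaggrin, had 0 UMIs in the members of the WT library and 1 in those of the KO library, and Ivl, for involucrin, had 6 and 8. Lor, for loricrin, was at 21.2 and 19.9 CPM, with a UMI in 9 of the 15 suprabasal cells, and its level in the other kept cells was 10.9 and 18.1 CPM.

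Ordered by their Krt1 and Krt10 level, the members were split into 4 groups of 152, 70, 14 and 15 cells. Krtdap went from 87.2 CPM in cells without Krt1 and Krt10 through 192 and 1539 to 3410 CPM, and Fabp5, a fatty acid binding protein of epidermis, from 833 through 1298 and 2864 to 4804 CPM. Of the desmosome genes, Dsp went from 287 through 310 and 737 to 846 CPM and Dsc3, a desmosomal cadherin, from 35.95 through 45.8 and 128 to 239 CPM, while Dsg2, a desmosomal cadherin too, was at 58.8 CPM in suprabasal cells and 98.6 CPM in members that were neither suprabasal nor among 12 cells rich in Krt19, which are described later. Krtdap and Sprr1a were already above the first group in cells with only 2 to 10 UMIs per 10000 of the 2 keratins.

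Several genes of basal cells were lower in the last groups. Col17a1 stood at 125, 109, 79.4 and 64.9 CPM. Krt5 and Krt15 chose the members and are given as a description only, at 833, 1007, 911 and 588 CPM and at 637, 679, 471 and 325 CPM. Of the signals, Wnt6 stood at 158, 164, 71.0 and 69.0 CPM, and the chemokine Cxcl14 at 544, 575, 297 and 122 CPM. Fst, the activin antagonist follistatin, which was picked after its values were seen, stood at 1289, 1533, 1403 and 430 CPM. The transcription factor Tfap2b was at 62.5 CPM in the first group and 18.3 CPM in the last, while Zfp750, a factor of terminal differentiation, was at 12.3 and 64.9 CPM. The median depth of the 4 groups was 15177, 25028.5, 44228 and 29620 UMIs, and the last 2 groups hold 3 and 1 cells of the WT library, so that their values come mostly from the KO library.

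**Figure D2:**
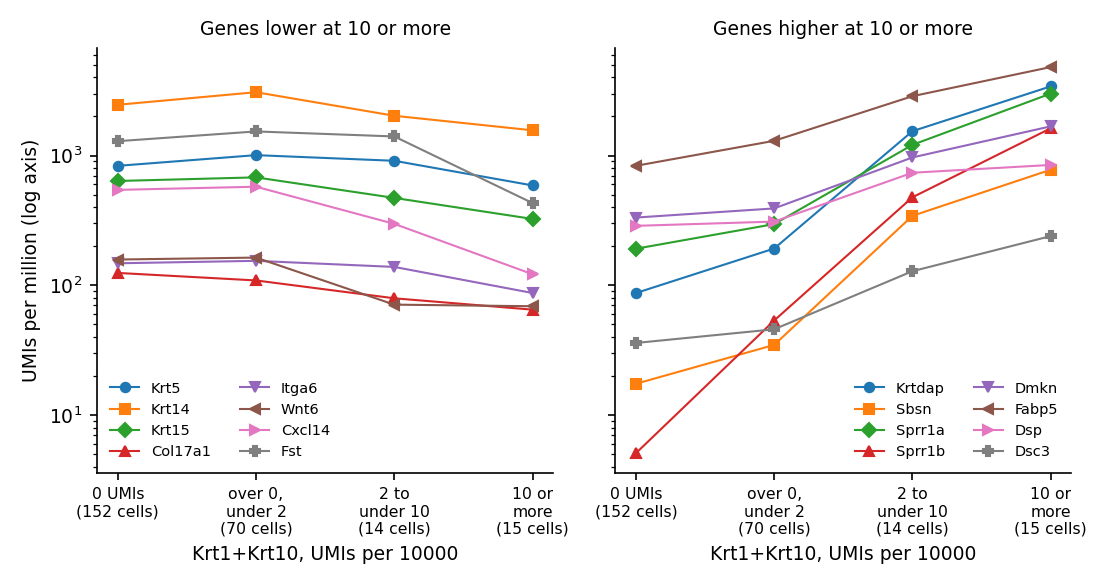
Levels in CPM (vertical log axis) of 8 genes that were lower and 8 genes that were higher in cells with the most Krt1 and Krt10, over 4 groups of keratinocytes ordered by Krt1 and Krt10 (horizontal axis, with the number of cells). Krtdap runs from 87.2 to 3410 and Cxcl14 from 544 to 122 between the first and the last group.

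The promoters of 3 of these genes are shown because they stand at both ends of the gradient, Krt5 for the basal side and Krt10 and Krtdap for the suprabasal side. They are the 250 bases before the gene's start on its own strand, 5′ to 3′, from RefSeq on GRCm38.p6. Krt5 lies at chr15:101712906-101713155 (minus strand), Krt10 at chr11:99389365-99389614 (minus strand) and Krtdap at chr7:30787655-30787904 (plus strand). Capitals mark the TATA box letters TATAAA and the AP-1 letters TGANTCA, searched on both strands together with the AP-2 letters GCCNNNGGC.
Krt5: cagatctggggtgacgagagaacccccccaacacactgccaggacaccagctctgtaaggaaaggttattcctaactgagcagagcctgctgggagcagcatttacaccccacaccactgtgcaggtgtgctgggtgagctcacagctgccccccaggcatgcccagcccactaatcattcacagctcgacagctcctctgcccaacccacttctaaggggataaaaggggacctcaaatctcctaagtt
Krt10: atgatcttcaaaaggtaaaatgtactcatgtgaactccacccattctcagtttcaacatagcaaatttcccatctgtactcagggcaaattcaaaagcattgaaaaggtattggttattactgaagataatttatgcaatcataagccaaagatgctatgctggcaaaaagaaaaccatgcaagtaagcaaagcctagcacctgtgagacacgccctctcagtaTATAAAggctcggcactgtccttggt
Krtdap: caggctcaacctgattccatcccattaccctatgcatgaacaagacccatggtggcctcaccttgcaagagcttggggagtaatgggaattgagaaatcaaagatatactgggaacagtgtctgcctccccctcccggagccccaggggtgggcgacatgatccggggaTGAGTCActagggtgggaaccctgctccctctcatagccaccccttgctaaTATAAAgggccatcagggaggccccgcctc

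Krt10 held TATAAA at 26 to 21 bases before the start and Krtdap at 30 to 25. Krtdap also held TGAGTCA at 81 to 75 bases before it, the letters bound by Fos and Jun factors. None of the 3 letter strings was found in the window of Krt5. Of all 32851 promoter windows of this length, 12.4% held TATAAA, 6.75% TGANTCA and 13.7% GCCNNNGGC. A match of letters is a description only.

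Between the libraries, the suprabasal list had the highest median ratio among the epidermal lists with more than 1 gene counted. Of 6 genes of the list with 200 UMIs or more, 5 were past 1.5-fold higher in the KO library and 0 lower, with a median ratio of 1.49, against 6.02% of all genes. The limit counts both libraries together, and the KO members held more UMIs, so genes higher there passed it more easily. Sbsn had 37 and 669 UMIs and Krt1 59 and 369. Of the list genes under the limit, Krt77 (1 and 67 UMIs) was higher in the KO library, and Lor and Ivl, given above, were not. Krt1 was at 33.8 CPM in the WT library and 88.6 CPM in the KO library, a ratio of 1.39 (0.99 to 1.81). Krt10 had 96 and 672 UMIs (1.55, 1.24 to 1.88). Dmkn, a secreted product of the suprabasal layers, was at 241 and 649 CPM (1.43, 1.28 to 1.58). Sbsn was at 21.2 and 161 CPM, with the widest ratio of these 6 genes (2.92, 2.44 to 3.44). The sixth gene, Fabp5, stood at 1353 and 1605 CPM, a ratio of 0.25.

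The difference was present among cells under the Krt1 and Krt10 limit too. Krtdap was at 145 CPM in the WT library and 715 in the KO library, with a ratio of 2.30 (2.12 to 2.49) over all members and of 2.17 without the 15 suprabasal cells. Without them, Dmkn kept a ratio of 1.34 and Sbsn one of 2.34, while Krt1 went to 0.90. The sum of the list had a log2 ratio of 0.87 over all members and 0.57 without these cells, and of -0.17 in the other kept cells. At 5000 UMIs per cell, a UMI of Krtdap was found in 15.3% of the WT members and 43.4% of the KO members, and one of Dmkn in 43.9% and 64.5%. Endothelial cells had Krtdap in 0.347% and 2.21% without thinning.

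**Figure D3:**
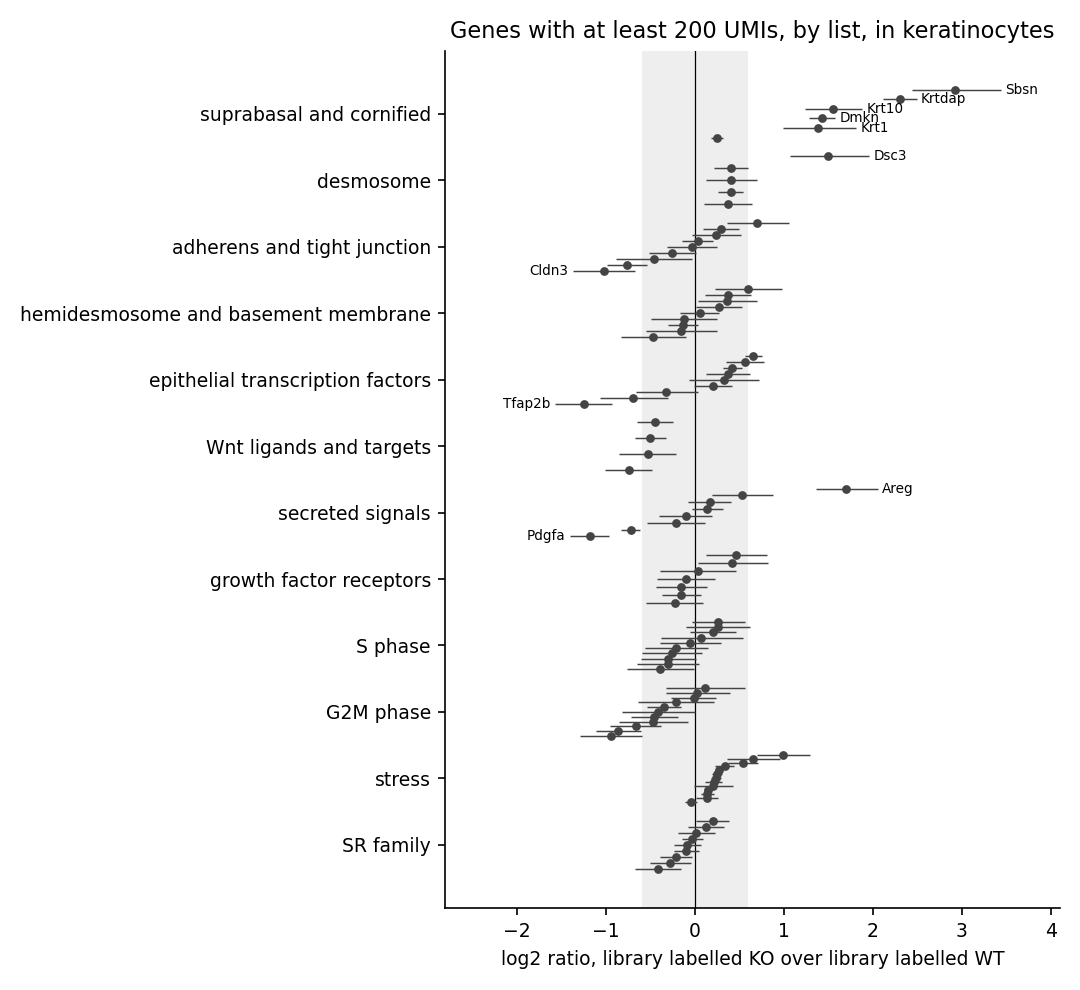
Each point is the log2 ratio of a gene's level in keratinocytes, library labelled KO over library labelled WT (horizontal axis), with its 95% counting interval as a bar, for genes with 200 UMIs or more in 12 gene lists (vertical axis). The grey band is within 1.5-fold, and 5 of the 6 suprabasal genes lie to its right with ratios of 1.39 to 2.92.

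Keratins were then read as a family, chosen after values were seen. Of 53 keratin genes in the matrix, 27 on chromosome 11 and 26 on chromosome 15, 10 had 200 UMIs or more in the members and 19 had 0. Krt16, a keratin of activated and appendage epithelium, was at 89.4 CPM in the WT library and 335 CPM in the KO library, a ratio of 1.91 (1.67 to 2.15), and of 1.79 without the suprabasal cells. Krt17 was at 207 and 335 CPM (0.69, 0.53 to 0.86). Krt6a, which pairs with both of these, had 11 and 163 UMIs, or 6.30 and 39.1 CPM. Krt77, a suprabasal type II keratin, had 1 and 67 UMIs. The simple epithelial keratins Krt8 and Krt18 were at 267 and 205 CPM and at 265 and 307 CPM, with ratios of -0.38 and 0.21. Without the 12 cells rich in Krt19, these ratios were 1.38 and 1.14.

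**Figure D4:**
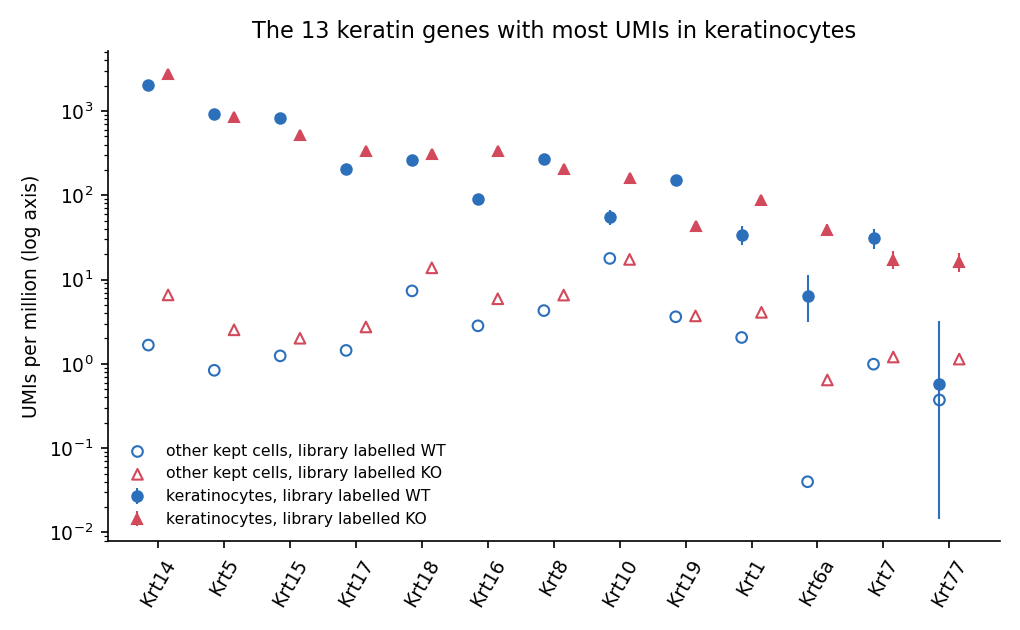
Levels in CPM (vertical log axis) of the 13 keratin genes with most UMIs in the keratinocytes (horizontal axis). Filled marks are keratinocytes with 95% counting intervals and open marks the other kept cells of the same library, and Krt16 stands at 89.4 in the library labelled WT and 335 in the library labelled KO.

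Desmosome and junction genes are read against the 8.87% of all genes past 1.5-fold. Among 5 desmosome genes with 200 UMIs or more, 1 was past 1.5-fold, Dsc3 at 28.6 and 81.1 CPM with a ratio of 1.502 (1.07 to 1.961). The other 4 lay between 0.37 and 0.41, among them Dsp at 315 and 417 CPM and Jup, the plaque protein plakoglobin, at 166 and 219 CPM. Among 9 junction genes, Cldn1, a claudin of the skin barrier, was higher in the KO library (0.70, 0.37 to 1.05). Cldn3 (-1.02) and Cldn7 (-0.76) were lower in it, but turned to 1.67 and 0.87 without the 12 cells rich in Krt19 that are described further on.

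Epithelial transcription factors went both ways. Of 9 with 200 UMIs or more, Klf4 was past 1.5-fold higher in the KO library (657 and 1037 CPM, 0.66, 0.57 to 0.76), and Tfap2b and Satb1 lower, where 6.02% of all genes were higher and 2.86% lower. Klf4, a factor of barrier formation, was as high in the other kept cells, at 819 and 961 CPM. Tfap2b stood at 93.96 and 39.6 CPM, a ratio of -1.25 (-1.57 to -0.93), and in the other kept cells it was 0.99, higher in the KO library. At 5000 UMIs per cell it was found in 34.7% and 15.8% of the members. Satb1, a chromatin organiser of epidermis, stood at 56.2 and 34.8 CPM (-0.69, -1.07 to -0.31). Klf5, Gata3 and Tfap2a had ratios of 0.42, 0.37 and -0.32.

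The 12 genes with the highest ratio included Sprr1b, Csta1 and Asprv1, which keratinocytes express, and 5 genes known from mast cells. Sprr1b had 27 UMIs in the WT library, 26 of them in 1 cell, and 1179 in the KO library, with a ratio of 4.19 (3.64 to 4.80), and its ratio was 7.55 without the suprabasal cells, which include that cell. With a keratin sum of 5 in place of 10 in the choice of members, the ratios were 1.46 for Sprr1b, 2.35 for Calm4, 1.84 for Asprv1 and 2.15 for Sbsn, so that the 11 cells this adds moved all of them. Csta1 had 26 and 483 UMIs, a ratio of 2.96 (2.39 to 3.59), and was found in 6.12% and 23.7% of the members at 5000 UMIs per cell. Its ratio in the other kept cells was 2.92, at levels of 0.146 and 1.11 CPM. Asprv1 was at 22.3 and 188 CPM (3.07, 2.61 to 3.57), and the hair keratin associated gene Krtap3-2 at 6.30 and 63.6 CPM (3.34, 2.47 to 4.36). Ly6d (4.63), Calm4 (3.89) and Sbsn (2.92) were also among the 12, and Ly6d went to 2.13 without the suprabasal cells.

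The other 5 are genes of mast cells, and a few cells held them. Cma1, for chymase, had 5 UMIs in the WT library and 1288 in the KO library, and 5 members of the KO library held 95.9% of the UMIs of all members. Cpa3, a mast cell carboxypeptidase, had 2 and 579 UMIs, and Tpsb2, a tryptase, 0 and 308. Against 3 counts over the members of the WT library, Tpsb2 was at least 5.43 higher in the KO library on the log2 scale. Hdc, which makes histamine, and Srgn, a proteoglycan of granules, had ratios of 5.57 and 4.64. Without the 5 cells the ratios of Cma1, Cpa3, Hdc and Srgn were 2.10, 1.54, 1.84 and 1.69. The 4 genes of the mast cell list summed to 4.01 CPM in the WT members and 523 CPM in the KO members, and to 88.0 and 1228 CPM in the other kept cells.

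The 12 lowest genes included Irx2, Bcl11b, Tox3 and Kremen2, beside Tfap2b given above. Irx2, of the Iroquois homeobox family, was at 144 CPM in the WT library and 38.9 CPM in the KO library, a ratio of -1.89 (-2.18 to -1.60). It was found in 40.8% and 17.1% of the members at 5000 UMIs per cell, and its ratio in the other kept cells was -0.04. Bcl11b, a zinc finger factor of the epidermis, was at 84.8 and 28.3 CPM (-1.58, -1.94 to -1.22), with 0.06 elsewhere. Tox3, a chromatin protein, was at 61.3 and 23.8 CPM (-1.37, -1.78 to -0.96). Kremen2, a receptor for Wnt antagonists, was at 65.9 and 26.2 CPM (-1.33, -1.72 to -0.94), and lower in the KO library elsewhere too (-1.80). The ratio of Irx2 was between -1.95 and -1.83 when the suprabasal cells, the Krt19 cells or the cells with mast cell genes were left out.

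Actc1 and Ibsp belong to other tissues. Actc1, an actin of embryonic muscle, had 194 and 13 UMIs, a ratio of -5.15, and 4 members held 79.7% of these UMIs. The skeletal muscle list summed to 252 and 13.2 CPM in the members and to 932 and 105 CPM in the other kept cells. Ibsp, the bone sialoprotein, had 817 and 385 UMIs, and 3 cells held 94.8% of them. The remaining genes of the 12 were Lgals4, Krt19 and Nupr1, which are taken up with the Krt19 cells, AY036118 with a ratio of -1.67 (-0.98 in the other kept cells), and Rflnb with -1.34.

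**Figure D5:**
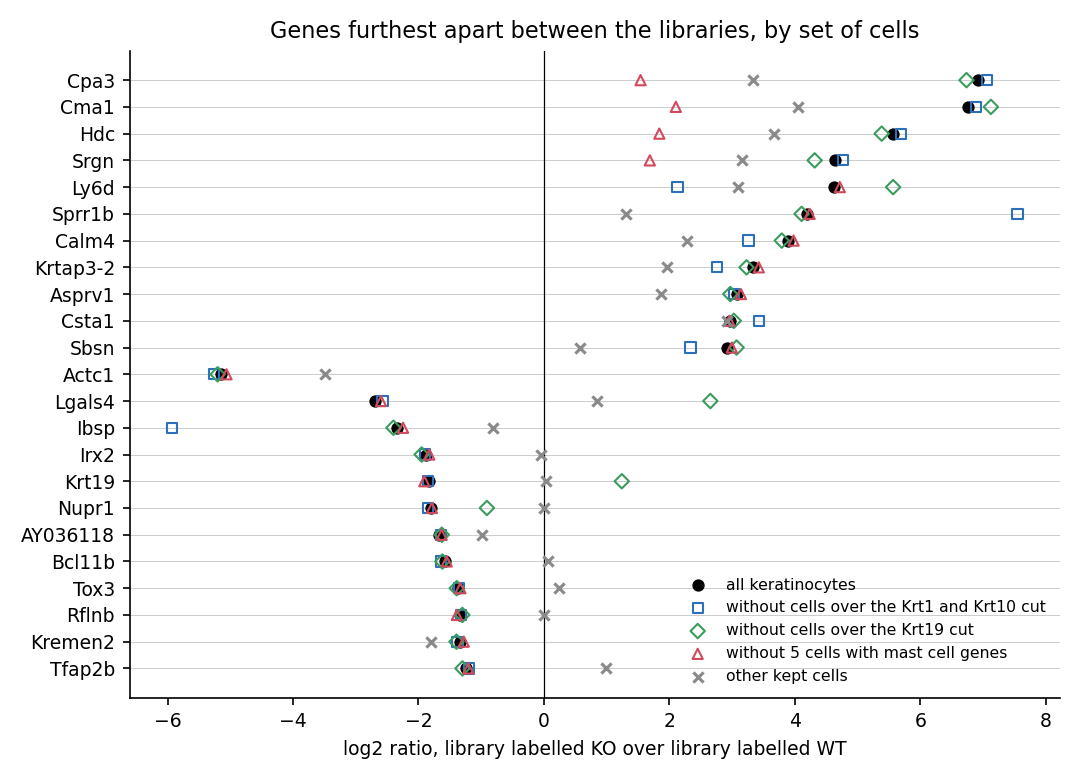
Log2 ratio, library labelled KO over library labelled WT (horizontal axis), of 23 of the 24 genes with the highest and lowest ratios in keratinocytes (vertical axis), Tpsb2 with 0 UMIs in the WT library being left out. Marks show all keratinocytes, 3 sets that leave out named cells, and the other kept cells. Cma1 moves from 6.75 to 2.10 without the mast cell gene cells. Krt19 moves from -1.83 to 1.24 without the 12 Krt19 cells, with a suprabasal cell over the Krt19 limit left in. Irx2 stays between -1.95 and -1.83 in all sets of keratinocytes.

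Signals of the epidermis to the dermis were measured from a list of Wnt genes and a list of other secreted factors. The 3 Wnt ligands with 200 UMIs or more had ratios below 0 and none was past 1.5-fold: Wnt4 at 252 and 178 CPM (-0.50, -0.67 to -0.33), Wnt6 at 177 and 130 CPM (-0.45, -0.65 to -0.24) and Wnt3 at 76.2 and 52.8 CPM (-0.53, -0.85 to -0.21). Under 200 UMIs, Wnt7b (-0.86), Wnt10a (-0.31), Wnt10b (-1.10) and Wnt16 (-0.59) were also below 0, and Wnt5a (0.69) and Wnt9a (0.74) above it. Lef1, a nuclear partner of beta-catenin, was the 1 gene of 4 past 1.5-fold, beside 2.86% of all genes lower, at 120 and 71.5 CPM (-0.74, -1.003 to -0.48). The sum of the 16 genes of the list had a ratio of -0.56 in the keratinocytes and of 0.02 in the other kept cells, and none of its 4 genes with 200 UMIs or more was higher in the KO library.

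Of 8 other secreted factors with 200 UMIs or more, 1 was past 1.5-fold higher and 2 lower, beside 6.02% and 2.86% of all genes. Areg, an EGF receptor ligand, was at 45.3 and 147 CPM (1.70, 1.36 to 2.06), with 1.18 without the suprabasal cells. Pdgfa, which acts on dermal fibroblasts, was at 191 and 84.5 CPM (-1.18, -1.40 to -0.96), and its ratio in the other kept cells was -1.14. Cxcl14 was at 685 and 415 CPM (-0.72, -0.83 to -0.61), against 0.49 elsewhere. Hbegf, another EGF receptor ligand, and Edn1, for endothelin, had ratios of 0.14 and -0.10. Among receptors, 7 had 200 UMIs or more and 0 were past 1.5-fold, with Fgfr2 at 147 and 132 CPM and Egfr at 70.5 and 60.3 CPM. Notch1, the receptor of early epidermal differentiation, was at 230 and 274 CPM (0.25, 0.09 to 0.42), and 0 of 3 Notch genes were past 1.5-fold.

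Cell cycle genes were found in most keratinocytes. At 5000 UMIs per cell, at least 2 of 18 G2M phase genes were found in 58.5% of the members of the WT library (47.8% to 68.1%) and in 56.3% of those of the KO library (48.3% to 64.6%), as means over 20 draws. The difference of -2.12 percentage points had an interval of -14.3 to 10.4, which leaves its sign open. This interval covers counting error only and cannot decide whether the libraries differ. Without thinning the shares were 76.5% and 78.4%, a difference of 1.90 (-8.33 to 12.8). Endothelial cells had 55.7% and 55.4%, and neuronal cells (Tubb3, Stmn2 and Elavl3 together at 20 UMIs or more), which should mostly have left the cycle, 31.4% and 23.8%. RNA outside cells can add to such calls, and its part was not tested.

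The sum of the G2M genes was 1103 and 831 CPM in the keratinocytes (-0.41) and 1488 and 882 CPM in the other kept cells (-0.75). Cenpe (-0.94), Ube2c (-0.86) and Cenpf (-0.66), which act in chromosome segregation, were the 3 of 11 past 1.5-fold, beside 2.86% of all genes lower. Genes of S phase had 0 of 10 past it, with a sum of 811 and 775 CPM. Cdkn1a, the cell cycle inhibitor p21, was at 145 CPM in the WT library and 307 in the KO library (1.08, 0.89 to 1.28), and at 214 and 272 CPM in the other kept cells. Along the Krt1 and Krt10 groups it stood at 226, 231, 306 and 505 CPM, and its ratio between the libraries without the suprabasal cells was 1.06. Cdkn1c, for p57, was at 689 and 700 CPM in keratinocytes against 4672 and 2478 CPM elsewhere. The sum of the 7 genes of the cell cycle exit list, Cdkn1c the most abundant, had a ratio of 0.23 over all members. Without 12 members with over 1% of UMIs from other lineages, described below, it was -0.08.

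Stress and immediate early genes had a higher sum in keratinocytes than in the other kept cells of each library. The 13 genes summed to 15118 and 17479 CPM in the members, against 9289 and 11893 CPM in the other kept cells, with Jun the most abundant at 3796 and 4573 CPM. Atf3 was at 2857 and 3168 CPM, against 511 and 836 CPM elsewhere. Of the 13 genes, 2 were past 1.5-fold higher in the KO library, the heat shock genes Hspa1a (0.99) and Hspa1b (0.65), beside 6.02% of all genes. Such genes are known to respond to cell dissociation, and their part in the other differences was not tested.

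Outside the suprabasal cells, 12 members had 3 or more UMIs of Krt19 per 10000, a limit chosen after the values were seen. They were 7 of the WT library and 5 of the KO library. A suprabasal cell of the KO library also passed this limit, at 6.62 per 10000, and was not put in the set. Krt19 chose these cells, so its level of 1165 CPM against 11.1 CPM in the other members is a description only. The 12 cells held Krt8 at 1792 against 131 CPM and Krt7 at 248 against 8.06 CPM. Cldn7, Cldn3, the transcription factor Foxq1, S100a6 and the secreted Agr2 were among their leading genes. These were taken from genes with at least 100 UMIs in all members, a limit that some pass only with the 12 cells. Krt7 had 81 UMIs in them, 4 in the suprabasal cells and 41 in the remaining members. Of the rule's genes, given as a description, Trp63 was at 9.17 CPM in them and 57.7 CPM in the members that were in neither this set nor the suprabasal one, and Krt14 at 859 and 2763 CPM. Upk1b, a uroplakin of urothelium, had 38 UMIs in 6 of the 12 cells. Periderm, which is known for Krt8, Krt18 and Krt19, and epithelia of the urogenital sinus share such genes, and the cells were given no name.

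Several values changed when the Krt19 cells were left out. Lgals4, a galectin of simple epithelia, had 99.5% of its WT UMIs and 98.8% of its KO UMIs in 5 cells of each library, and its ratio of -2.69 turned to 2.65 (1.02 to 4.98) without the 12 cells. That value rests on 1 cell, since 49 UMIs in other members and 1 in a suprabasal cell remained, and a single cell of the KO library held 43. Krt19 itself turned from -1.83 to 1.24, and Nupr1 moved from -1.81 to -0.91. The Krt19 value rests in part on the suprabasal cell of the KO library over the Krt19 limit, which was not left out. That cell held 19 UMIs of Krt19, beside 43 in the members that were in neither set. The ratio without it was not computed. The periderm list summed to 970 CPM in the WT library and 860 in the KO library, a ratio of -0.17, and to 403 and 730 CPM without the 12 cells, a ratio of 0.86. The share of cells with 2 G2M genes was 31.3% in the Krt19 cells (9.92% to 65.1%), 42.7% in the suprabasal cells (16.3% to 67.7%) and 59.6% in the remaining members (52.9% to 66.1%).

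RNA of other lineages was present in the members. Over 1% of the UMIs came from the markers of 6 other lineages in 12 members, 3 of the WT library and 9 of the KO library, which had a median of 36521.5 UMIs against 19864 for all members. Melanocyte genes (Dct and Pmel together at 10 UMIs or more) were found in 8 members, which held 99.1% of the Dct UMIs, and muscle genes (Actc1, Mylpf and Tnnt1) in 4. Of the melanocyte list, Tyrp1 had 0 UMIs in the KO members. Whether such cells were 2 cells in 1 droplet was not tested. Without the 12 cells, 303 of 3364 genes (9.01%) were past 1.5-fold in place of 320 of 3606 (8.87%), and the Srsf2 ratio was -0.25.

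Dcn, the fibroblast proteoglycan decorin, went beyond this. It had a UMI in 83.7% and 88.9% of the members, at 281 and 286 CPM, against 23.6% and 16.5% of endothelial cells, which are of similar depth. The ratio of Dcn to Col1a1 UMIs was 0.598 in the members of the WT library and 0.794 in those of the KO library, and 1.41 and 1.36 in members with at most 1% of other lineages. It was 0.178 and 0.170 in endothelial cells, and 0.179 and 0.207 in neuronal cells, to which no such limit was applied. Postn, a matrix protein, had a UMI in 76.5% and 77.8% of the members and in 26.7% and 17.7% of endothelial cells. Col1a1, Col3a1 and Lum were at shares close to those of endothelial cells, 67.3% and 59.5% for Col1a1 against 72.9% and 56.6%. Where this Dcn came from was not tested.

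Specialised epidermal structures left few counts. Shh, the signal of the hair placode, had 15 UMIs in the WT library and 12 in the KO library, Dkk4 had 18 and 19, and Edar 1 and 2. Lef1, counted above with the Wnt genes, was the 1 of 4 placode genes with 200 UMIs or more past 1.5-fold, beside 8.87% of all genes, and Sox9 and Sostdc1 were even, with ratios of 0.09 and 0.12. Atoh1, which specifies Merkel cells, had 0 and 4 UMIs, and 0 genes of the Merkel and limb ectoderm lists reached 200 UMIs. Of 39 Hox genes, a family looked at after other values were seen, 37 had a UMI in the members, but 3 reached 100 UMIs: Hoxa7 at 46.4 and 22.8 CPM (-1.03, -1.47 to -0.58), Hoxc8 at 28.6 and 17.5 CPM (-0.71, -1.25 to -0.16) and Hoxa5 at 30.4 and 15.1 CPM (-1.01, -1.56 to -0.45). Xist, expressed from the inactive X chromosome of females, had 0 UMIs in the members of both libraries, and Y-linked genes had a UMI in 84.7% and 93.5% of them and in 79.8% and 76.4% of all kept cells.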

How the data were processed

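Droplet libraries of sorted tdT+ cells were read from 1 aggregated matrix of raw UMI counts, 32285 genes by 27766 barcodes, as deposited. The authors made it with Cell Ranger (5.0.0 in the file header, 3.1.0 in the submitters' processing notes) on mm10 without intronic reads, and joined the libraries after down-sampling reads. Barcodes were tied to libraries by suffix and cell number. All barcodes held 156093779 UMIs in the library labelled WT and 128116615 in the library labelled KO. Counts were summed over keratinocytes and scaled to 1000000 UMIs. Genes were called past a fixed fold (1.5 between libraries, 4 against other cells, 2 for suprabasal cells) with no test. Named were the 12 genes highest and 12 lowest between libraries, the 25 highest against other cells, the 15 highest in suprabasal cells, and members of listed pathways. The members and lists were chosen with earlier results of these data known. Keratins as a family, Hox genes, Fst, Krt16 and the leading genes of the Krt19 cells were added after their values were seen. Some genes that the rule names are not reported here. No doublet caller was run. Intervals are Clopper-Pearson, Poisson or conditional binomial. The ratio of keratinocyte shares has a normal approximation on the log scale instead, and differences between shares have Newcombe intervals. Scripts were tested on simulated data and run with Python 3.11.15, NumPy 2.4.6, SciPy 1.17.1, pandas 2.3.3 and matplotlib 3.10.9.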

Additional observations from a re-analysis of the deposited data

How the results depend on the processing

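No paired analysis was possible because each genotype had 1 library. The 6 results on keratinocytes were recomputed under 68 alternatives, of which 62 stayed within the margin (the 95% interval of the reported value, or 1.5 times for a count of genes), 6 moved and 0 of the called values changed sign. Limits of 500 and 2000 UMIs per cell are among them and left the members unchanged. Only the keratinocyte share could move there, and the other values repeat the reported ones. The log2 ratio of keratinocyte shares was 1.51 at a mitochondrial limit of 5% (0.549% and 1.56%), against 0.93, and 0.58 with skeletal muscle cells left out of the total. Genes past 1.5-fold between libraries numbered 1329 of 7777 with at least 50 UMIs per gene (640 higher and 689 lower in the KO library) and 51 of 788 with at least 1000 UMIs (42 higher, 9 lower), against 320 of 3606, or 17.1% and 6.47% in place of 8.87%. Genes over 4-fold against other cells numbered 266 of 15289 (1.74%) and 50 of 8518 (0.587%) at these limits, against 150 of 12613 (1.19%). At 20 UMIs of Krt1 and Krt10 per 10000 the suprabasal shares differed by 0.94 percentage points (1 and 3 cells), in place of 8.13. The Srsf2 ratio ran from -0.26 to -0.20, with an interval that included 0 at the mitochondrial limit of 5% (-0.41 to 0.01), and the difference in cycling share from -5.78 to 2.28 percentage points, its sign not being set by these data. Without the 12 Krt19 cells, Lgals4 went to 2.65 and Krt19 to 1.24. This alternative was chosen after seeing the data, as was leaving out the cells with mast cell genes. It left in a suprabasal cell over the Krt19 limit, which held 19 UMIs of Krt19. With a keratin sum of 5 for members, Sprr1b went to 1.46, Calm4 to 2.35, Asprv1 to 1.84 and Sbsn to 2.15. Of 322 values for named genes, 301 stayed within the margin, 19 moved and 2 reversed, those of Lgals4 and Krt19. Those at limits of 500 and 2000 UMIs per cell are copies of the reported values and are counted in the 301. The cause of these changes was not tested. Depth limits genes under 200 UMIs, and with 1 library per genotype the spread between embryos is unknown.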

Other observations

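Other genes that keratinocytes express were higher in the library labelled KO and were picked after their values were seen. Lypd3, a surface protein of suprabasal cells, was at 14.3 CPM in the library labelled WT and 106 CPM in the library labelled KO, a log2 ratio of 2.89. Plet1 was at 48.1 and 206 CPM, the water and glycerol channel Aqp3 at 37.2 and 123 CPM, and the annexin Anxa1 at 325 and 792 CPM. Stfa1 and Stfa3, cystatin family inhibitors like Csta1, had ratios of 2.75 and 2.53. Lgals7, the galectin of stratified epithelium, was at 299.6 and 669 CPM, and Epgn, a ligand of the EGF receptor, at 44.7 and 91.5 CPM. Gjb6, a connexin of epidermis, went the other way, at 52.1 and 31.0 CPM.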
